A study of Homo sapiens with 32 samples.

Results

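MDA-LM2 and MDA-MB-231 cells were compared for the decay of mRNAs from 10 genes known from lung-selected derivatives of MDA-MB-231: PTGS2, EREG, MMP1, TNC, SPARC, ANGPTL4, LTBP1, KYNU, NEDD9 and FSCN1. The genes were taken from a given list by matching the RefSeq transcripts of both deposited rate tables to current gene symbols, and the rule used no rate. All 10 had a rate in at least 1 table, among 11980 genes in all. Only 5 of them (PTGS2, EREG, TNC, LTBP1 and FSCN1) had the same transcript in both tables, as did 10625 of the 11980 genes. The other 5 could not be compared between the lines on a shared transcript: MMP1 and SPARC had rates in MDA-MB-231 only, NEDD9 had rates in MDA-LM2 only, and ANGPTL4 and KYNU had a different transcript in each table.

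MDA-MB-231 is a long-used human breast cancer line of mesenchymal character, and MDA-LM2 was derived from it by selection for metastasis to the lung. Both lines were grown as cultures, fed 4-thiouridine (4sU) for 2 h and then moved to medium with excess uridine. 4sU is a uridine analogue that cells build into newly made RNA, so labelled RNA can be precipitated and followed as it is lost. The labels list 32 libraries of such RNA, 4 per line at each of 0, 2, 4 and 7 h after the pulse, with no other treatment. Every transcript in a table has 4 decay rates, 1 from each replicate series of that line, and a rate is positive where abundance fell with time. Neither the unit nor the log base of the rates is stated in the sources, so values are in the deposited unit and none was turned into a half-life. The tables hold rates and no levels, so neither expression nor sequencing depth can be read from them.

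An mRNA's abundance is set by how fast it is made and how fast it is removed, and removal is often steered by short elements in its 3′ untranslated region (3′UTR). AU-rich elements, repeats of the pentamer ATTTA in DNA letters, are the best known of these and mark many mRNAs of inflammation and growth for rapid removal. Many of the genes studied here act at the surface of a metastatic cell or in the matrix around it. PTGS2 (cyclooxygenase-2) makes the precursor of prostaglandins, EREG (epiregulin) is a ligand of the EGF receptor and MMP1 is a collagenase, and in mice these 3 were reported, with MMP2, to help MDA-MB-231 derivatives pass blood vessels. TNC (tenascin C) and SPARC are matrix-associated glycoproteins, ANGPTL4 is a secreted lipase inhibitor, LTBP1 holds latent TGF-beta in the matrix, KYNU (kynureninase) acts in tryptophan breakdown, NEDD9 is an adhesion scaffold and FSCN1 (fascin) bundles actin filaments.

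The 3′UTR windows richest in ATTTA are shown for 5 genes that span fast, slow, negative and scattered rates, because AU-rich elements are the sequence feature most often tied to mRNA decay. They are read 5′ to 3′ from GENCODE 29 transcripts, with each ATTTA in capitals and overlapping pentamers sharing a base.
PTGS2: atgatcatATTTATTTATTTAtatgaacc
EREG: ccATTTAtttcATTTAcaaaagATTTAtt
MMP1: gaatataatcttATTTAtacctcagtttg
SPARC: acaaaatATTTAtgatgtATTTActctgca
KYNU: tATTTAtATTTAtatATTTAtatATTTAt

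The coordinates are on GRCh38, whereas the submitters' processing notes name hg18. The PTGS2 window starts at base 8 of the 3′UTR (chr1:186674317-186674345, minus strand). The EREG window lies at bases 2560 to 2588 of the 3′UTR (chr4:74387368-74387396, plus strand), the MMP1 window at 111 to 139 (chr11:102790273-102790301, minus strand) and the SPARC window at 1454 to 1483 (chr5:151662088-151662117, minus strand). The KYNU window, from NM_003937, lies at 1584 to 1612 (chr2:143043756-143043784, plus strand). Searching the sense strand, the PTGS2 3′UTR held 22 pentamers in 2562 bases, EREG 20 in 3943, SPARC 6 in 2475 and MMP1 3 in 492. The KYNU transcript NM_003937 held the most, 54 in 13660 bases, and its rates in MDA-LM2 were all negative. The 5 LTBP1 transcripts held 2 each and both NEDD9 transcripts 4. FSCN1 (1181 bases), TNC (623 bases), the KYNU transcript NM_001032998 (749 bases) and both ANGPTL4 transcripts (445 and 487 bases) held none, like 30.7% of the 13994 transcripts of either table with a matched 3′UTR. In the first 300 bases after the stop codon PTGS2 held 6 pentamers, and at least 5 were found in 0.339% of the 11207 3′UTRs of that length or more. The longer element TTATTTATT, which contains the pentamer, was in the first 300 bases of PTGS2 and of 1.41% of those 3′UTRs. Anywhere in the 3′UTR it was found in 3 of the 17 transcripts of these genes (PTGS2, EREG and KYNU NM_003937) and in 8.03% of all 3′UTRs. In MDA-LM2 the median rate was 0.181 over 1049 transcripts with this longer element and 0.160 over 11889 without it. In MDA-MB-231 it was 0.203 over 1034 transcripts with it and 0.197 over 11589 without it. A match of letters is a description and shows no protein bound there.

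Over all genes compared, the rates of the 4 series had medians of 0.164 ± 0.0107 in MDA-LM2, against 0.189 ± 0.0153 in MDA-MB-231 (SD, n = 4 series each). Of all transcript rates, 7.04% were below -1 or above 1 in the MDA-LM2 table and 21.6% in the MDA-MB-231 table. Among the metastasis gene transcripts these were 12 of 52 rates in MDA-LM2 (23.1%) and 18 of 52 in MDA-MB-231 (34.6%). Such rates dominate any mean that contains them. Some genes outside the set had 4 nearly equal high rates in MDA-MB-231, as AATK (9.47 ± 0.0231), ABT1 (9.48 ± 0.0261) and ANKRD37 (9.63 ± 0.0381, SD, n = 4 series each). How zero abundances were treated is not stated in the sources. Whether the size of such rates measures the speed of decay was not tested. Whether the 4 series of a line were grown as separate cultures is not stated, and the p-values therefore reflect only how far these series scatter, which may be technical. Series labelled with the same second number (replicates 1 and 3, and replicates 2 and 4) resembled each other. Over genes their Spearman correlations were 0.794 and 0.839 in MDA-LM2, against 0.633 and 0.780 in MDA-MB-231. Series sharing no number gave 0.618 and 0.622 in MDA-LM2, against 0.264 and 0.327 in MDA-MB-231. The same held for the metastasis genes: in 19 of 26 sets of 4 series the 2 pairs with the same second number lay closer together than the pairs with the same first number, and in 4 sets the mean gaps were equal. Each call below is therefore given also with an estimated correlation between such series. The mesenchymal markers VIM, CD44, FN1 and AXL all had rates in both tables, and 1 of 4 epithelial, 0 of 2 immune and 0 of 2 endothelial markers did.

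**Figure D1:**
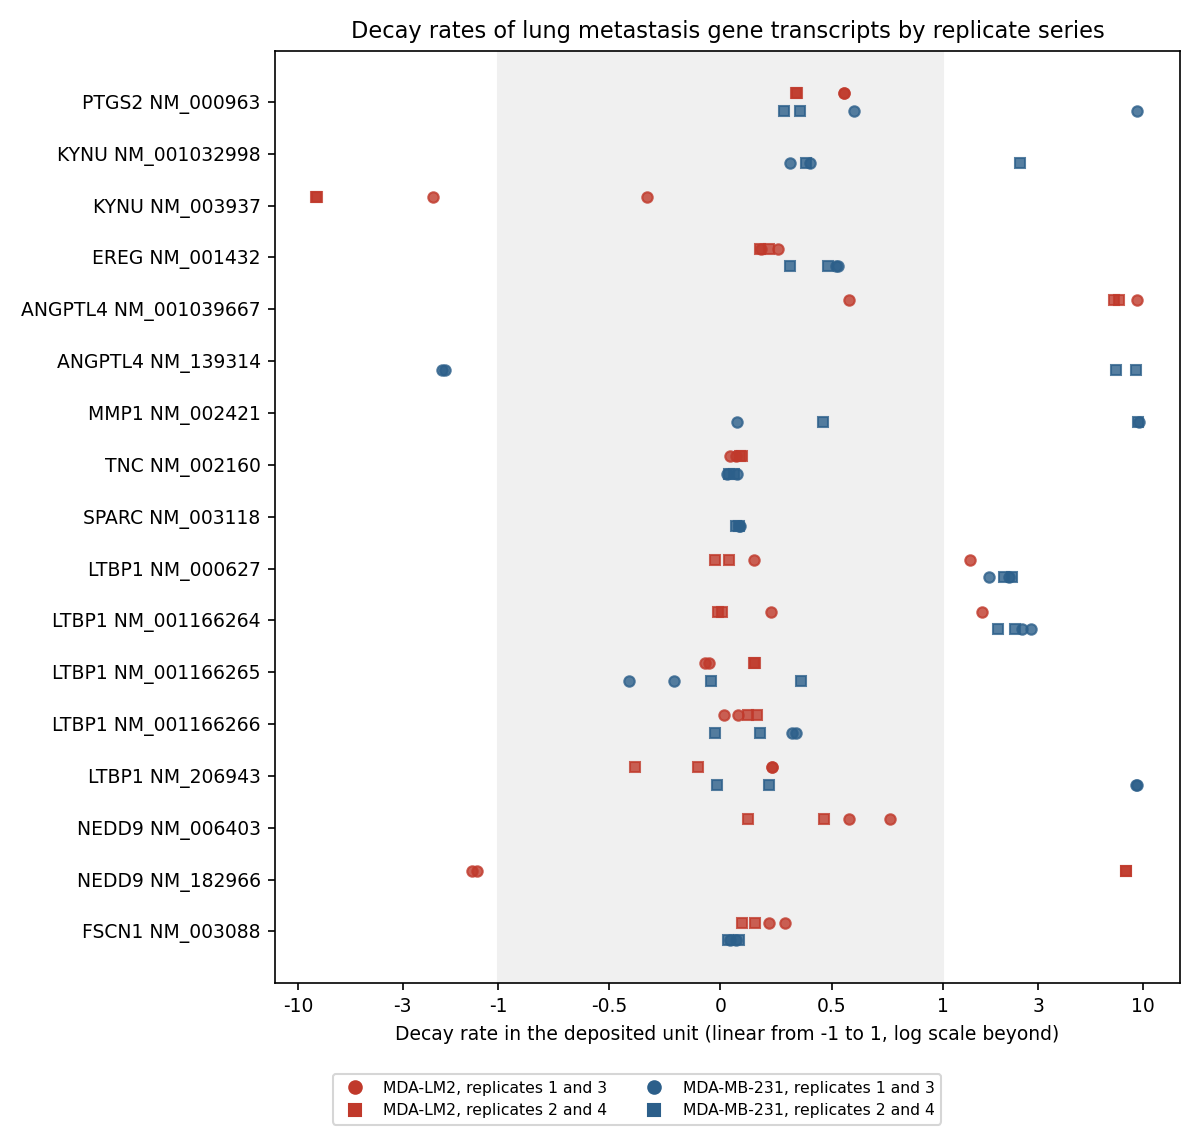
Decay rates of every metastasis gene transcript (rows) in each replicate series, in the deposited unit on an axis that is linear from -1 to 1 and logarithmic beyond. MDA-LM2 series are red and MDA-MB-231 series blue, circles are replicates 1 and 3 and squares replicates 2 and 4, and the grey band marks rates within 1 of 0. TNC and SPARC stay below 0.1 in every series shown, while MMP1, ANGPTL4, KYNU and NEDD9 NM_182966 scatter across the axis.

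Of the 5 genes compared between the lines, EREG decayed more slowly in MDA-LM2 by the fit that treats the series as independent, and FSCN1 had higher rates in all 4 MDA-LM2 series without passing the threshold. TNC, PTGS2 and LTBP1 did not pass. The call therefore covered 1 of 5 genes as slower in MDA-LM2, against a background of 6.76% of the 10625 genes, and 0 of 5 as faster, against 1.98% (limma, Benjamini-Hochberg adjusted p of 0.05 over all genes). At an unadjusted p under 0.05 the limma fit had 1 of 5 slower (EREG), against 19.3% of all genes, and 1 of 5 faster (FSCN1), against 6.96%. An unequal-variance test with the same adjustment called 0 of 5 in either direction, against 4.77% slower and 1.07% faster. With correlated series limma called 0 of 5 in either direction, against a background of 3.19% slower and 0.32% faster. Fitted alone, the 7092 genes with all rates within 1 of 0 gave 1 slower and 0 faster with correlated series. EREG, FSCN1 and TNC were among these genes and did not pass. Mean rates were lower in MDA-LM2 for 3 of 5 genes, as for 67.1% of all genes. A count of 1 in 5 genes is too small to set apart from these backgrounds.

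EREG signals through the EGF receptor when shed from the cell. Its rates in replicates 1 to 4 were 0.260, 0.179, 0.182 and 0.221 in MDA-LM2, against 0.522, 0.484, 0.529 and 0.314 in MDA-MB-231. All 4 MDA-LM2 rates lay below all 4 MDA-MB-231 rates, with the MDA-MB-231 replicate 4 the nearest. Genes whose 4 MDA-LM2 rates all lay below were 17.7% of those compared. The mean rate was 0.210 ± 0.0379 in MDA-LM2, against 0.462 ± 0.101 in MDA-MB-231 (SD, n = 4 series each), a ratio of 0.455. The difference was -0.252 ± 0.0534 (SE), with a limma adjusted p of 0.0331. Its exact two-sided permutation p was 0.0286, the smallest that 4 against 4 series can give. That test treats the series as independent, and every gene whose lines do not overlap has this p. With correlated series the adjusted p was 0.150 (limma). The difference was -0.305 in replicates 1 and 3 and -0.199 in replicates 2 and 4, so both pairs of series showed the direction. In the authors' deposited table EREG has a score of 0.989, where a positive score marks slower decay in MDA-LM2. The size of the score is 1 minus an unadjusted unequal-variance p on the same rates, so it is not separate evidence. Leaving out any 1 of 7 series brought the limma adjusted p to between 0.0536 and 0.102, whereas leaving out MDA-MB-231 replicate 4 gave 0.00240. Ranked among all transcripts of its own series, EREG stood at percentiles 50.8 to 74.8 in MDA-LM2, against 69.7 to 78.6 in MDA-MB-231, and on this scale the lines overlapped.

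FSCN1 packs actin filaments into the bundles of filopodia and invasive protrusions. Its rates in replicates 1 to 4 were 0.289, 0.0974, 0.218 and 0.158 in MDA-LM2, against 0.0410, 0.0355, 0.0687 and 0.0822 in MDA-MB-231. The lines did not overlap, and the lowest MDA-LM2 rate (replicate 2) was close to the highest MDA-MB-231 rate (replicate 4). Genes whose 4 MDA-LM2 rates all lay above were 5.53% of those compared, and 23.2% had no overlap in either direction. The mean was 0.191 ± 0.0822 in MDA-LM2, against 0.0568 ± 0.0223 in MDA-MB-231 (SD, n = 4 series each). The difference was 0.134 ± 0.0410 (SE, 95% interval 0.0370 to 0.231). Its limma adjusted p was 0.0952, and 0.255 with correlated series, so it did not pass. The exact two-sided permutation p, which treats the series as independent, was 0.0286, as for every gene whose lines do not overlap. The difference was larger in replicates 1 and 3 (0.199) than in replicates 2 and 4 (0.0687). FSCN1 ranks did not overlap, with percentiles of 29.4 to 79.6 in MDA-LM2, against 17.04 to 24.97 in MDA-MB-231. The share of all transcripts whose ranks do not overlap was not computed, so this cannot be set against a background and adds no weight to FSCN1. The score in the authors' deposited table is -0.957.

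TNC, a glycoprotein of the niche around disseminated cells, had some of the lowest rates of the set in both lines. Its rates were 0.0454, 0.0958, 0.0714 and 0.0874 in MDA-LM2, against 0.0299, 0.0608, 0.0754 and 0.0406 in MDA-MB-231. The lines overlapped, and every rate was below 0.1. The mean was 0.0750 ± 0.0222 in MDA-LM2, against 0.0517 ± 0.0204 in MDA-MB-231 (SD, n = 4 series each). The difference of 0.0234 had a 95% interval of -0.0175 to 0.0642 and a limma adjusted p of 0.402 (exact two-sided permutation p = 0.171). With each series centred on its median it was 0.0485 (limma adjusted p = 0.0784). In every series TNC stood in the slower part of the distribution, at percentiles 19.99 to 30.5 in MDA-LM2, against 15.8 to 24.0 in MDA-MB-231.

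**Figure D2:**
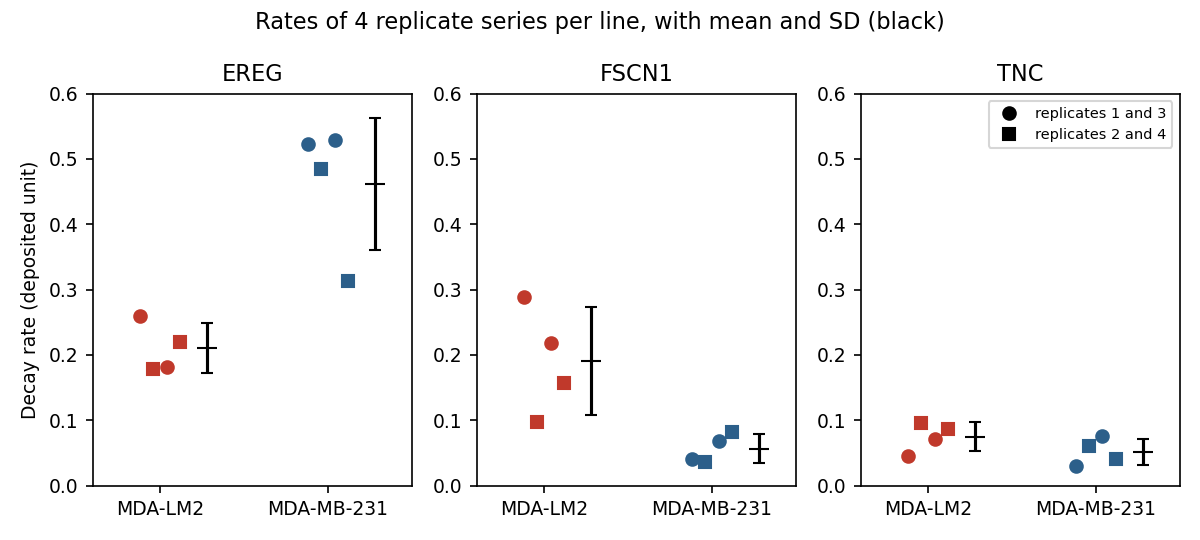
Decay rates (deposited unit) of EREG, FSCN1 and TNC in the 4 replicate series of MDA-LM2 (red) and MDA-MB-231 (blue), with the mean and SD in black. Circles are replicates 1 and 3 and squares replicates 2 and 4. EREG rates are lower in MDA-LM2 and FSCN1 rates higher, each without overlap, while TNC rates overlap below 0.1.

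PTGS2 decayed fast in both lines, and whether the pentamers shown above bear on its rates was not tested. Its rates were 0.554, 0.343, 0.555 and 0.341 in MDA-LM2, against 9.35, 0.358, 0.602 and 0.284 in MDA-MB-231. The MDA-LM2 series paired almost exactly by the second number of their label, and MDA-MB-231 replicate 1 stood far above its other 3 series. The medians were 0.448 in MDA-LM2, against 0.480 in MDA-MB-231. The difference of the means, -2.20, rested on that 1 rate: it had a limma adjusted p of 0.489, a 95% interval of -7.10 to 2.70, and without MDA-MB-231 replicate 1 it was 0.0333 (limma adjusted p = 0.845). The percentiles were 82.1 to 93.7 in MDA-LM2, against 66.6 to 92.7 in MDA-MB-231, and every series placed PTGS2 in the faster part of the distribution. The score in the authors' deposited table is 0.603.

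LTBP1, which binds latent TGF-beta to matrix fibres, was listed as 5 transcripts, and they did not move together. NM_000627 had rates of 0.152, 0.0369, 1.38 and -0.0248 in MDA-LM2, against 1.71, 2.22, 2.14 and 2.02 in MDA-MB-231. NM_001166264 had 0.227, 0.00590, 1.56 and -0.0127 in MDA-LM2, against 2.49, 1.88, 2.76 and 2.29 in MDA-MB-231. For both transcripts the 4 MDA-LM2 rates lay below all 4 MDA-MB-231 rates, as for 16.6% of transcripts, with MDA-LM2 replicate 3 far above its other series. In a limma fit on 12966 transcripts, where 6.04% were called slower in MDA-LM2 and 1.9% faster, the differences were -1.64 (adjusted p = 0.0341) and -1.91 (adjusted p = 0.0393). With correlated series, where 2.97% were called slower, neither passed, with limma adjusted p of 0.167 for NM_000627 and 0.166 for NM_001166264. The authors' deposited table scores them 0.988 and 0.992. Leaving out MDA-LM2 replicate 3 kept both calls (limma adjusted p = 0.00212 and 0.00701), as did leaving out MDA-MB-231 replicate 2 for NM_001166264 (0.0379), whereas leaving out any other 1 series ended them, at 0.0512 to 0.111 for NM_000627 and 0.0694 to 0.129 for NM_001166264.

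The other LTBP1 transcripts showed no call. NM_001166265 averaged 0.0456 ± 0.123 in MDA-LM2, against -0.0753 ± 0.329 in MDA-MB-231, and NM_001166266 averaged 0.0964 ± 0.0642 in MDA-LM2, against 0.203 ± 0.169 in MDA-MB-231 (SD, n = 4 series each). NM_206943 had rates of 0.231, -0.0998, 0.231 and -0.385 in MDA-LM2, against 9.29, 0.219, 9.32 and -0.0172 in MDA-MB-231. In both lines its replicates 1 and 3 were nearly equal and above replicates 2 and 4, but only in MDA-MB-231 did they exceed 1. Limma adjusted p-values for these 3 transcripts were 0.628, 0.438 and 0.287. Taken as the median over its transcripts, the gene had 0.102 ± 0.110 in MDA-LM2, against 1.10 ± 0.973 in MDA-MB-231, with a difference of -0.995 (limma adjusted p = 0.219; exact two-sided permutation p = 0.0571). The difference was -1.65 with the mean over transcripts and -0.649 without MDA-MB-231 replicate 3. The median was taken within each series and fell on different transcripts. In MDA-MB-231 it was NM_000627 in replicates 1 and 3, NM_001166265 in replicate 2 and NM_001166266 in replicate 4. The SD of the gene therefore includes the gaps between transcripts. The transcripts share large parts of their sequence, and the values per transcript are uncertain. How reads were divided among them is not stated, and its effect on the rates was not tested.

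**Figure D3:**
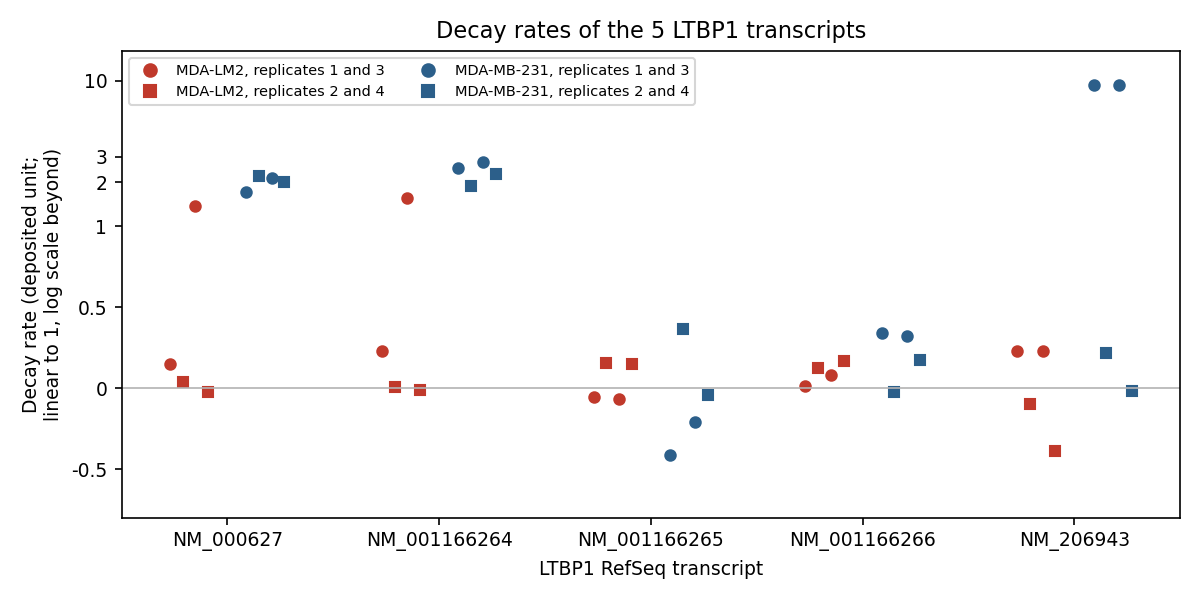
Decay rates of the 5 LTBP1 transcripts in each replicate series, in the deposited unit on an axis that is linear up to 1 and logarithmic beyond. MDA-LM2 is red and MDA-MB-231 blue, circles are replicates 1 and 3 and squares replicates 2 and 4. NM_000627 and NM_001166264 are higher in all 4 MDA-MB-231 series, whereas NM_001166265 and NM_001166266 overlap between the lines.

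SPARC and MMP1 had rates in MDA-MB-231 only, and no rate of theirs in MDA-LM2 was analysed here. SPARC, a collagen-binding matricellular protein, had the tightest rates of the set, at 0.0831, 0.0699, 0.0898 and 0.0820 in MDA-MB-231 (0.0812 ± 0.00828, SD, n = 4 series). They stood at percentiles 20.9 to 26.1, and their range overlapped that of TNC in the same line. MMP1, which cuts fibrillar collagen, had 0.0763, 9.40, 9.52 and 0.460. Its rates fell into 2 low and 2 high values that did not follow the second number of the labels, and its percentiles ran from 24.1 to 96.3, so no single rate describes it.

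NEDD9, a scaffold of focal adhesions related to BCAR1, had rates in MDA-LM2 only. NM_006403 had 0.576, 0.124, 0.761 and 0.465 (0.482 ± 0.268, SD, n = 4 series), a mean close to that of PTGS2, with replicate 2 the lowest and percentiles from 36.5 to 94.7. NM_182966 had -1.28, 8.28, -1.35 and 8.28, negative in replicates 1 and 3 and high in replicates 2 and 4, so no single rate describes it.

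ANGPTL4, induced by TGF-beta and known to loosen contacts between endothelial cells, had NM_001039667 in MDA-LM2 with rates of 9.39, 7.59, 0.580 and 7.21. In MDA-MB-231 it had NM_139314 with rates of -1.84, 9.21, -1.90 and 7.35. Replicate 3 was the low series of the MDA-LM2 transcript, whereas the MDA-MB-231 transcript was negative in replicates 1 and 3 and high in replicates 2 and 4. KYNU, which cleaves kynurenine, had NM_003937 in MDA-LM2 with rates of -2.11, -8.05, -0.328 and -8.09, all negative and at percentiles 0.440 to 1.79. In MDA-MB-231 it had NM_001032998 with rates of 0.312, 0.384, 0.402 and 2.45, at percentiles 69.3 to 85.7, with replicate 4 far above the others. The transcripts differ between the tables, so these values stand side by side with no comparison.

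**Figure D4:**
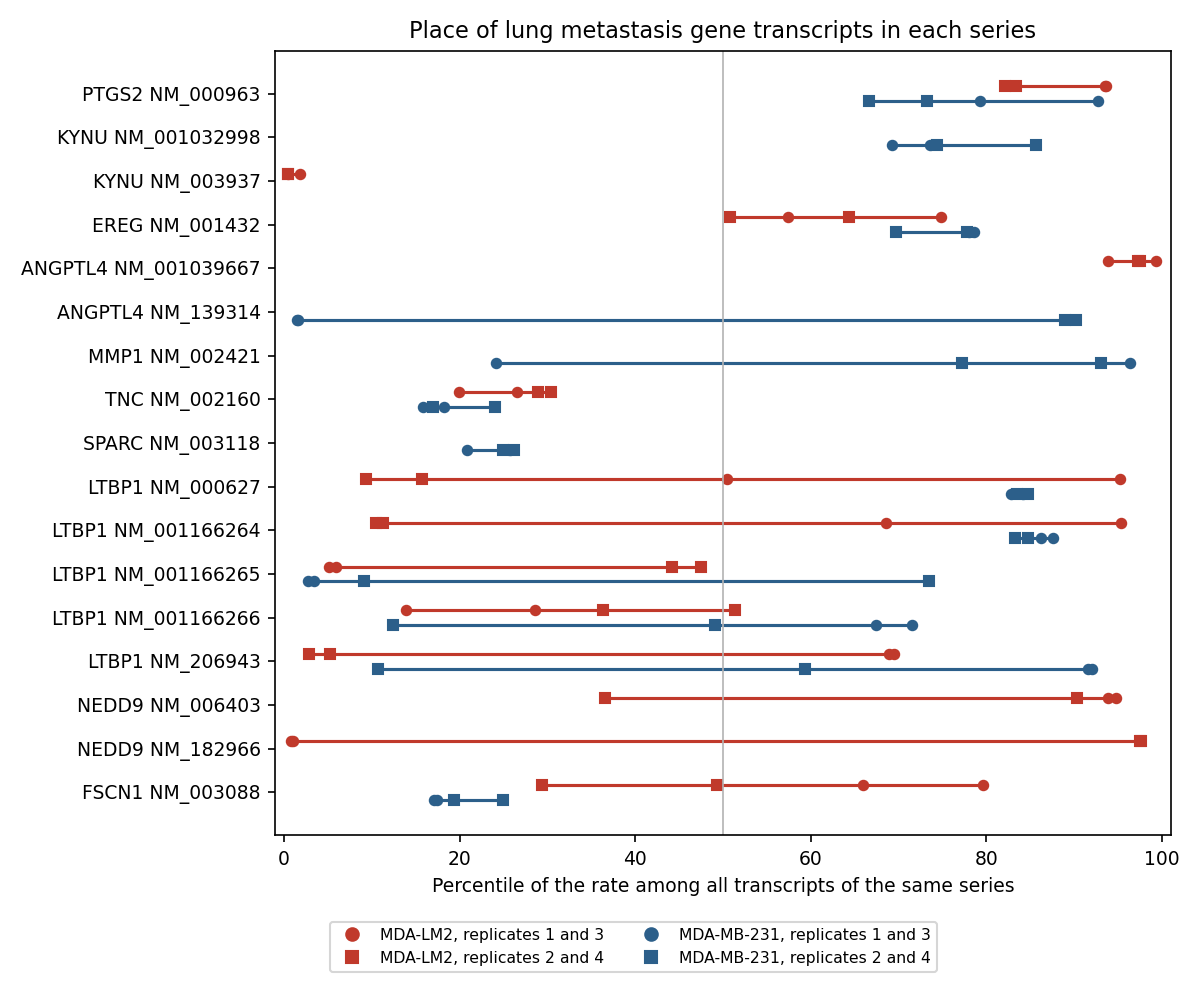
Percentile of each metastasis gene transcript (rows) among all transcripts of the same replicate series, with 0 the slowest. MDA-LM2 is red and MDA-MB-231 blue, lines join the lowest and highest series, circles are replicates 1 and 3 and squares replicates 2 and 4. PTGS2 and EREG lie above the 50th percentile in every series, and TNC and SPARC below it.

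The order of the rates within each line is given as a description. In MDA-LM2, 8 transcripts had all 4 rates within 1 of 0. By mean rate they ran from NEDD9 NM_006403 (0.482) and PTGS2 (0.448) through EREG (0.210), FSCN1 (0.191), LTBP1 NM_001166266 (0.0964) and TNC (0.0750) to LTBP1 NM_001166265 (0.0456) and NM_206943 (-0.00574). Neighbours in this order overlapped, except PTGS2 and EREG. NEDD9 NM_006403 overlapped each of the others except TNC. In MDA-MB-231, 6 transcripts had all 4 rates within 1 of 0, and by mean rate they ran from EREG (0.462) through LTBP1 NM_001166266 (0.203), SPARC (0.0812), FSCN1 (0.0568) and TNC (0.0517) to LTBP1 NM_001166265 (-0.0753). All neighbours in that order overlapped. EREG did not overlap SPARC, FSCN1 or TNC, whereas both LTBP1 transcripts spread over the slow genes and into the EREG range.

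The genes whose 8 gene rates were nearest to those of EREG by Euclidean distance, among 10542 searched, were NRIP2 (0.190), the pseudogene FKBP6P2 (0.195, uncertain where reads are shared with related copies) and NUDT12 (0.198). For FSCN1 they were PPIL2 (0.0959), DANCR (0.100) and ZC3HAV1L (0.137). For TNC they were SSRP1 (0.0491), IFNAR1 (0.0542) and CLNS1A (0.0555), all 3 slow in both lines with mean rates of 0.0672 to 0.0875 in MDA-LM2, against 0.0526 to 0.0551 in MDA-MB-231.

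Genes that act with the metastasis genes were examined in 10 lists of ligands, receptors, enzymes, inhibitors and partners. Of 121 listed genes, 59 had the same transcript in both tables, of which 3 were called slower in MDA-LM2 (5.08%) and 3 faster (5.08%), against the background of 6.76% and 1.98% (limma, adjusted p of 0.05 over all genes). With correlated series limma called 0 in either direction. The median difference over the 59 genes was -0.0596, against -0.0542 over all genes. The listed partners of EREG included ADAM10, a protease that sheds EGF receptor ligands, which fell to 0.0425 ± 0.00855 in MDA-LM2, against 0.109 ± 0.0202 in MDA-MB-231 (SD, n = 4 series each; limma adjusted p = 0.0373, and 0.182 with correlated series). It was the 1 gene called among 6 of the EGF family list, whose median difference was -0.00849.

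In the list of prostaglandin synthesis and receptors, 1 of 6 genes passed. ABCC4, a transporter that exports prostaglandins, had 0.110 ± 0.0208 in MDA-LM2, against 0.251 ± 0.0305 in MDA-MB-231 (SD, n = 4 series each; limma adjusted p = 0.00944, and 0.0642 with correlated series). Of 9 genes of the latent TGF-beta complex and its receptors, LTBP2, a fibrillin-binding relative of LTBP1, was the 1 called, with 0.131 ± 0.0239 in MDA-LM2, against 0.222 ± 0.0239 in MDA-MB-231 (limma adjusted p = 0.0390, and 0.206 with correlated series). Both differences were toward slower decay in MDA-LM2.

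The calls toward faster decay in MDA-LM2 were TIMP2, CCN1 and CCN2. TIMP2, an inhibitor of metalloproteinases, had 0.102 ± 0.0178 in MDA-LM2, against 0.0150 ± 0.0318 in MDA-MB-231 (SD, n = 4 series each; limma adjusted p = 0.0405, and 0.162 with correlated series), and was 1 of 6 in its list. CCN2, a matricellular growth factor modulator, had 0.652 ± 0.0633 in MDA-LM2, against 0.404 ± 0.0351 in MDA-MB-231 (limma adjusted p = 0.0189, and 0.0980 with correlated series). CCN1, its relative, had 0.806 ± 0.0348 in MDA-LM2, against 0.512 ± 0.0375 in MDA-MB-231 (limma adjusted p = 0.0114, and 0.0561 with correlated series), so that limma called 2 of the 3 matricellular genes measured, of 15 listed, faster, against 1.98% of all genes. With correlated series it called 0 of the 3.

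The remaining lists had 0 calls by limma in either direction. Other lung signature genes (4 measured of 9) were led by KRT81, a hair keratin, with 0.0327 ± 0.0224 in MDA-LM2, against -0.0205 ± 0.0105 in MDA-MB-231 (SD, n = 4 series each; limma adjusted p = 0.0740). The gene of smallest p was PPARG among angiopoietin-like proteins and lipases (4 measured), QPRT in the kynurenine pathway (6), PXN among CAS family and focal adhesion genes (8) and FLNC among actin bundlers and crosslinkers (7), with limma adjusted p-values of 0.275, 0.105, 0.121 and 0.0901. All 4 had lower mean rates in MDA-LM2 and at least 1 MDA-MB-231 rate beyond 1, as for QPRT, the enzyme downstream of KYNU on the way to NAD, with 0.279 ± 0.108 in MDA-LM2, against 7.21 ± 4.53 in MDA-MB-231.

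**Figure D5:**
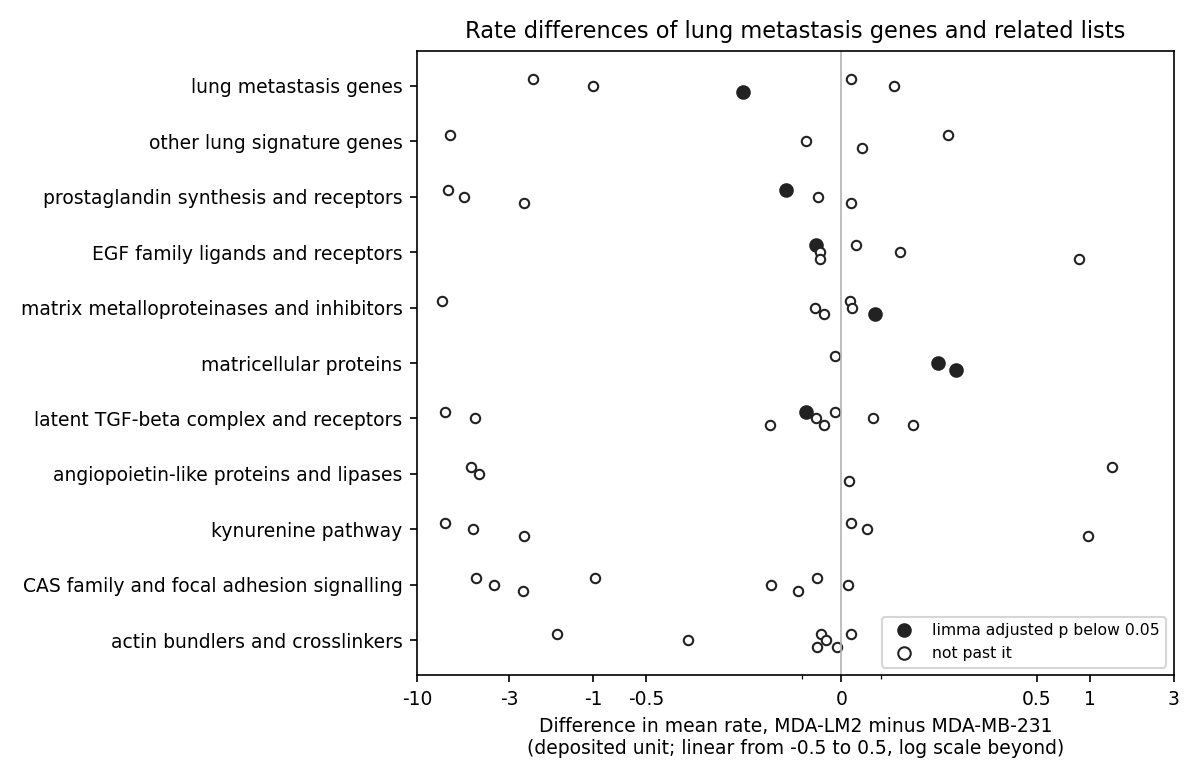
Difference in mean decay rate (MDA-LM2 minus MDA-MB-231, deposited unit, linear from -0.5 to 0.5 and logarithmic beyond) of each gene compared, for the metastasis genes and 10 related lists. Filled points passed a limma adjusted p of 0.05 over all genes. Filled points lie on both sides of 0, with 1 metastasis gene (EREG) and 3 related genes below it and 3 related genes above it.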

How the data were processed

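The authors' deposited files hold decay rates per RefSeq transcript, 1 for each of 4 series per line, and a differential score. Per the series' design text, rates were estimated from the loss of labelled RNA over the time points. Per the submitters' processing notes, which give neither version nor role, TopHat, Cufflinks and hg18 were used. The deposited score equalled, within 0.001 for all 12966 transcripts, 1 minus an unequal-variance p, positive where MDA-LM2 had the lower mean rate. Read depth is unknown.

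Symbols came from RefSeq (12644 of the 12966 transcripts) and GENCODE 29 (118), and 204 had none and were left out of the gene fit. A gene's rate was the median over its transcripts. limma 3.58.1 (R 4.3.3, two-sided, with a variance trend and without a block; Benjamini-Hochberg adjustment over all 10625 genes) compared 4 against 4 series, and was tested on simulated data. The correlated fit used limma's consensus correlation (0.457). Alternatives were the replicate block, the correlation, centring, 2 variance models, an unequal-variance test, a restricted range, means over transcripts and leaving out each series. The transcript fit, with its repeats, and the restricted range with correlated series were added after the values were seen. Members and lists were chosen with earlier results of these data known. Besides the cell type markers, named genes are all members, up to 3 calls per list (else the smallest p) and the 3 nearest genes per member within range. AATK, ABT1 and ANKRD37 were picked outside these rules, as examples of high rates. 3′UTRs came from the GENCODE transcript matched to each accession.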

Additional observations from a re-analysis of the deposited data

Results flagged for a closer look

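Of 26 sets of 4 series (1 transcript in 1 line), 4 held a series far from the other 3. Chance flags about 1 in 20 sets of independent, normally distributed values. Series that share the second number resembled each other, so that rate need not hold here. The sets share series and, for LTBP1, most of their sequence, so they are not independent. PTGS2 in MDA-MB-231 had 9.35 in replicate 1 and 0.284 to 0.602 in the others. KYNU NM_001032998 in MDA-MB-231 had 2.45 in replicate 4 and 0.312 to 0.402 in the others. LTBP1 in MDA-LM2 had 1.38 (NM_000627) and 1.56 (NM_001166264) in replicate 3, with the other series at -0.0248 to 0.152 and at -0.0127 to 0.227.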

How the results depend on the processing

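EREG kept its direction under all 17 alternatives and lost its call under 11 of them: the correlated series (limma adjusted p = 0.150), the same with genes within 1 of 0 fitted alone (0.156), the replicate block (0.135), the unequal-variance test (0.109) and 7 of 8 series left out. FSCN1 and TNC kept direction and stayed short of the threshold under all 17 (limma adjusted p from 0.0535 to 0.255 and from 0.0784 to 0.678). LTBP1 did the same under its 15 (limma adjusted p from 0.101 to 0.364, unequal-variance adjusted p = 0.378). The TNC difference was 0.0485 after centring, and that of LTBP1 ran from -1.65 with the mean over transcripts to -0.649 without MDA-MB-231 replicate 3. PTGS2 did so under 14 of 15 and reversed without MDA-MB-231 replicate 1, to 0.0333, because the 1 extreme rate was left out; its differences with 1 series left out ran from -2.99 to 0.0333. PTGS2 and LTBP1 could not be fitted within 1 of 0.

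Of all genes, 718 were called slower and 210 faster in MDA-LM2. The counts were 246 and 31 with the replicate block, 339 and 34 with correlated series, and 1 and 0 with correlated series within 1 of 0. Faster calls were 424 after centring (slower 546) and 114 by the unequal-variance test, and the cause was not tested. With 1 series left out, 401 to 994 were slower and 83 to 273 faster, and of the metastasis genes 0 to 1 was slower and 0 faster. The slower metastasis gene count was 0 instead of 1 with the replicate block, the correlated series in both ranges and the unequal-variance test. Equal replicate numbers did not pair series between the lines: correlations of deviations from the line means ran from -0.0421 to 0.00793 and 0 of 4 series correlated best with their own number. Depth is unknown, and 4 series per line limit precision.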
